A study of Bos taurus with 2 samples.

Results

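The R-spondin roof-plate-like neural cells were barcodes that carried RNA of at least 2 of the 3 R-spondin genes RSPO1, RSPO2 and RSPO3, with at least 4 UMI (unique molecular identifiers, so that copies of a captured transcript are counted once) of the 3 genes together, and under 10 UMI of the fibrillar collagen genes COL1A1, COL1A2 and COL3A1. Only barcodes with at least 1000 UMI and at least 500 genes entered. The rule found 106 cells among 4159 kept barcodes. Replicate 1 held 49 of 1843 (2.66%, exact Clopper-Pearson 95% interval 1.97 to 3.50%) and replicate 2 held 57 of 2316 (2.46%, 1.87 to 3.18%), so the share did not differ between the libraries beyond counting error, which is all these intervals cover. The cells came from day 25 bovine embryos made chimeric with bovine embryonic stem cells (bESC), profiled by droplet single-cell RNA sequencing in 2 libraries. Both had the same labels, so the comparisons are between groups of cells inside each library. The labels do not say how many embryos entered a library or whether the libraries came from different embryos. The p-values below therefore rest on how far the difference between groups varied between these 2 libraries, with that spread largely shared across genes. The difference between the libraries themselves is taken out by the fit. The variation may be technical.

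R-spondins are secreted proteins that bind LGR4, LGR5 and LGR6 and take the ubiquitin ligases ZNRF3 and RNF43 off the cell surface, which leaves more Frizzled receptor in place and makes a cell more sensitive to WNT. The roof plate is the strip of cells along the dorsal midline of the neural tube. It releases WNT and BMP ligands that pattern the dorsal neural tube, depends on the homeodomain factor LMX1A, and in the brain borders or gives rise to the choroid plexus and the cortical hem.

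The deposited table held 1973 and 2464 barcodes with counts for 17846 genes. The R-spondin cells were deeper than the other kept barcodes, with a median of 8567 and 10100 UMI against 5181 and 5870, and depth enters the rule through its threshold of 4 UMI. In all, 6 barcode sequences occurred in both libraries, and none of them was an R-spondin cell in either. No doublet caller was run. Globin RNA was counted in every group of cells. HBZ, an embryonic globin, stood at 326 and 311 CPM (UMI scaled to a group's sum of 1000000, in replicate 1 and replicate 2, the order of every pair of values below), against 387 and 3175 CPM in other SOX2-positive cells. Levels in CPM are of 3′ tags and are compared between groups of cells, not between genes.

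The 3 R-spondin genes chose these cells, so their levels are a description. A cell held 4 to 65 R-spondin UMI in replicate 1, with a median of 15, and 4 to 53 in replicate 2, with a median of 22. RSPO1 stood at 187 and 195 CPM, RSPO2 at 608 and 802 CPM and RSPO3 at 1508 and 1527 CPM. The libraries were close for RSPO1 and RSPO3, and RSPO2 was higher in replicate 2. The cells held 70.9% and 77.6% of all RSPO1 UMI of the kept barcodes, 82.6% and 89.7% of the RSPO2 UMI and 42.7% and 36.9% of the RSPO3 UMI. RSPO3 thus had most of its UMI elsewhere. Near the threshold, 6 and 2 cells passed with a sum of 4 or 5, while 4 and 7 barcodes fell just short with a sum of 3 over at least 2 of the genes. Another 3 barcodes, all in replicate 2, passed the R-spondin part and had 10 or more collagen UMI. The highest collagen sum in an R-spondin cell was 2 and 4 UMI.

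Most cells carried RSPO3 with 1 of the other R-spondins. RSPO1 with RSPO3 and no RSPO2 was found in 21 and 24 cells, and RSPO2 with RSPO3 and no RSPO1 in 17 and 16 cells. All 3 genes were found in 11 and 16 cells. RSPO1 and RSPO2 without RSPO3 occurred in 1 cell, in replicate 2. RSPO3 was thus detected in 49 of 49 and 56 of 57 cells, RSPO1 in 32 and 41 cells and RSPO2 in 28 and 33 cells. SPARCL1, a secreted matrix protein given as a marker of these cells with the rule, stood at 349 and 380.4 CPM against 11.9 and 10.3 CPM in all other kept barcodes, and was detected in 25 of 49 and 33 of 57 cells. The requirement for 2 of the 3 genes shapes these counts, and no test was made of them.

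**Figure D1:**
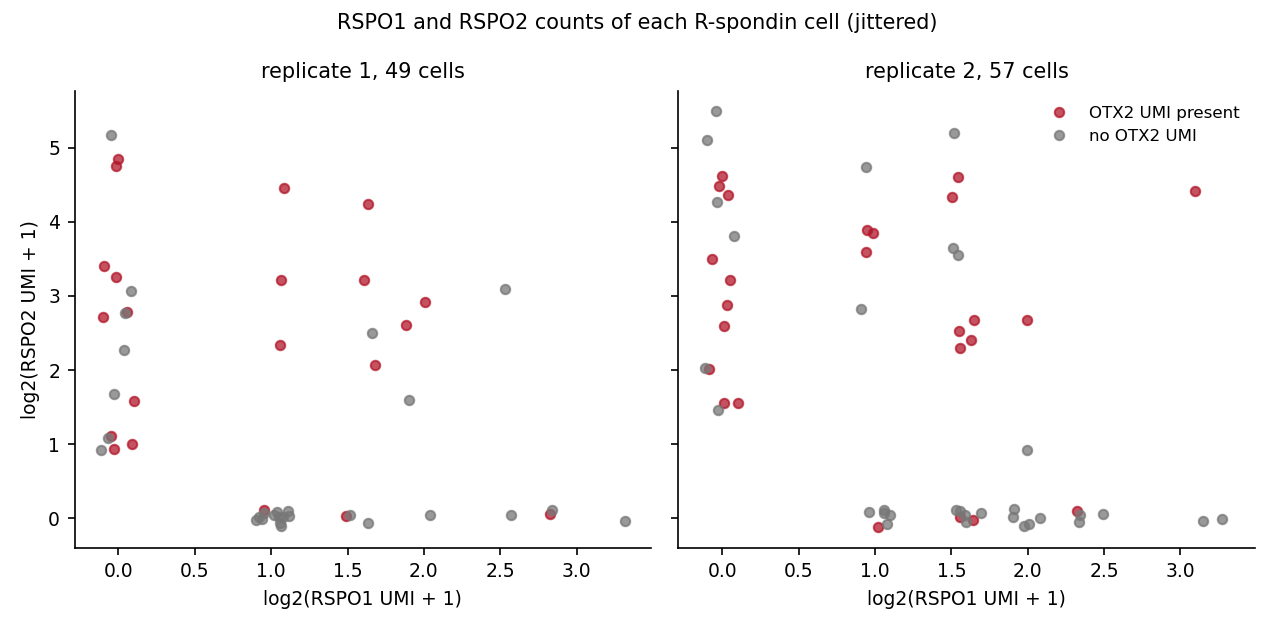
Each point is 1 R-spondin cell, placed by log2 of its RSPO1 UMI plus 1 and log2 of its RSPO2 UMI plus 1 with a small jitter, in replicate 1 (49 cells) and replicate 2 (57 cells). Points along the left edge have no RSPO1 UMI (32 and 41 cells have one), and red points carry an OTX2 UMI (21 and 25 cells).

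The roof-plate name was set beside genes the rule did not use. The list of these genes was written with earlier results of these data known, so it is not an independent check of the name. LMX1A, the homeodomain factor that specifies the roof plate, stood at 254 and 299.8 CPM, against 13.5 and 13.9 CPM in all other kept barcodes. The library levels of the groups did not overlap, and LMX1A was detected in 40 of 49 and 43 of 57 cells. Of kept barcodes with 2 or more LMX1A UMI, 33 of 63 and 32 of 72 were R-spondin cells, and the others lay outside the rule. The log2 fold change was 4.47 (SE 0.19, adjusted p = 5.5e-21) in edgeR's quasi-likelihood test, with p-values adjusted over all genes tested by Benjamini-Hochberg. WNT3A, a WNT ligand of the dorsal midline, stood at 244 and 247 CPM against 46.8 and 44.8 CPM (2.55, SE 0.17, adjusted p = 4.0e-15), where the values in parentheses here and below are the log2 fold change, its standard error and its adjusted p from this test. The LMX1A paralog LMX1B (33.3 and 22.5 against 11 and 10.9 CPM, 1.44, SE 0.39, adjusted p = 0.008) and the BMP-responsive homeobox gene MSX1 (74.4 and 84.3 against 56.4 and 52.1 CPM, 0.70, SE 0.22, adjusted p = 0.026) were higher by less. Of the 8 roof-plate genes counted, 6 were abundant enough to test, 4 were higher, none was lower, and their median log2 fold change was 1.31, beside -0.08 over all 13322 genes tested. In this comparison 1020 genes (7.66%) were higher and 1100 (8.26%) lower, 15.9% in all. The ligand BMP6 (1.19, SE 0.43, adjusted p = 0.051) and MSX2 (1.11, SE 0.80, adjusted p = 0.39) did not pass. DESeq2, and the fit without R-spondin cells with a TTR UMI, each called 2 of the 6. Against other SOX2-positive cells, BMP6 passed (1.45, SE 0.44, adjusted p = 0.011) and MSX1 did not (0.43, SE 0.22, adjusted p = 0.18). Among barcodes with at least 5000 UMI only, the log2 fold change against all other kept barcodes was 4.63 for LMX1A and 2.72 for WNT3A.

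Classical roof-plate ligands were not all present. WNT1, which marks the dorsal midline of the midbrain and cord, had no UMI in any of the 106 cells, which allows a level of up to 7.69 and 5.62 CPM at a floor of 3 counts per library. GDF7, a BMP-family ligand of the roof plate, had 1 UMI in each library (2.56 and 1.87 CPM), and no UMI in any other kept barcode. Of the defining roof-plate genes, LMX1A, WNT3A and LMX1B were thus raised, and WNT1 and GDF7 were at or near 0. The opposite midline was low. FOXA2, the transcription factor of the floor plate, stood at 48.7 and 48.7 CPM against 196 and 203 CPM in all other kept barcodes (-1.90, SE 0.21, adjusted p = 4.6e-09). SHH, the ventral morphogen, had 1 and 3 UMI in the R-spondin cells and stood at 2.56 and 5.62 CPM against 44.0 and 52.7 CPM (-3.36, SE 0.50, adjusted p = 2.7e-06). Of the 10 floor-plate genes counted, 9 were tested and 4 were lower (SHH, CORIN, FOXA2 and NTN1), and the axon repellent SLIT2 was higher at 1347 and 1325 CPM against 465 and 487 CPM (1.62, SE 0.11, adjusted p = 7.9e-15).

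**Figure D2:**
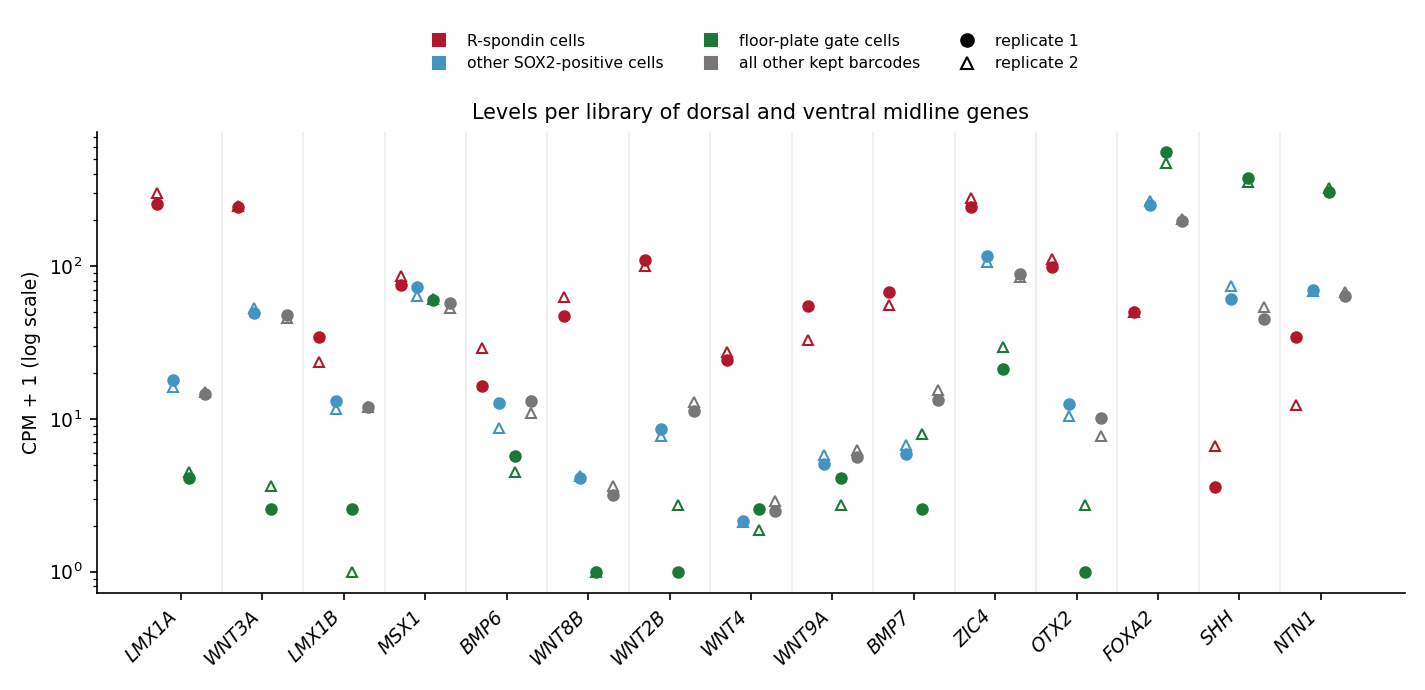
Levels of 15 dorsal, ventral and regional genes per library, as CPM + 1 on a log axis, so that a gene with no count sits at 1; circles are replicate 1 and triangles replicate 2. LMX1A stands at 254 and 299.8 CPM in R-spondin cells and at most 16.9 CPM in the other 3 groups drawn, while FOXA2, SHH and NTN1 are highest in the floor-plate gate cells.

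The same contrast was seen at equal depth. After each cell was thinned to 2000 UMI, which left out 1 R-spondin cell in each library, an LMX1A UMI remained in 39.6% and 42.9% of R-spondin cells (exact intervals 25.8 to 54.7% and 29.7 to 56.8%), against 2.91% and 2.67% of other SOX2-positive cells (1.91 to 4.24% and 1.83 to 3.74%) and 0% of cells with 10 or more collagen UMI (0 of 56 and 0 of 138, which allows up to 5.36% and 2.17% at 3 counts, with exact upper limits of 6.38% and 2.64%). Unthinned, the shares were 81.6% and 75.4% of R-spondin cells and 6.03% and 6.42% of SOX2-positive cells. WNT3A remained in 29.2% and 35.7% of R-spondin cells (17.0 to 44.1% and 23.4 to 49.6%) and 8.18% and 9.5% of SOX2-positive cells, and unthinned in 59.2% and 73.7% and 18.3% and 20.1%. For both genes the R-spondin cells lay above the other neural cells in each library with intervals that did not overlap. HBZ was present in 37.5% and 53.6% of thinned R-spondin cells and 48.7% and 46.8% of thinned SOX2-positive cells, with overlapping intervals within each library. The median depth before thinning was 8567 and 10100 UMI in R-spondin cells, 5936 and 6959 in SOX2-positive cells and 10450.5 and 8351 in the collagen-rich cells.

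**Figure D3:**
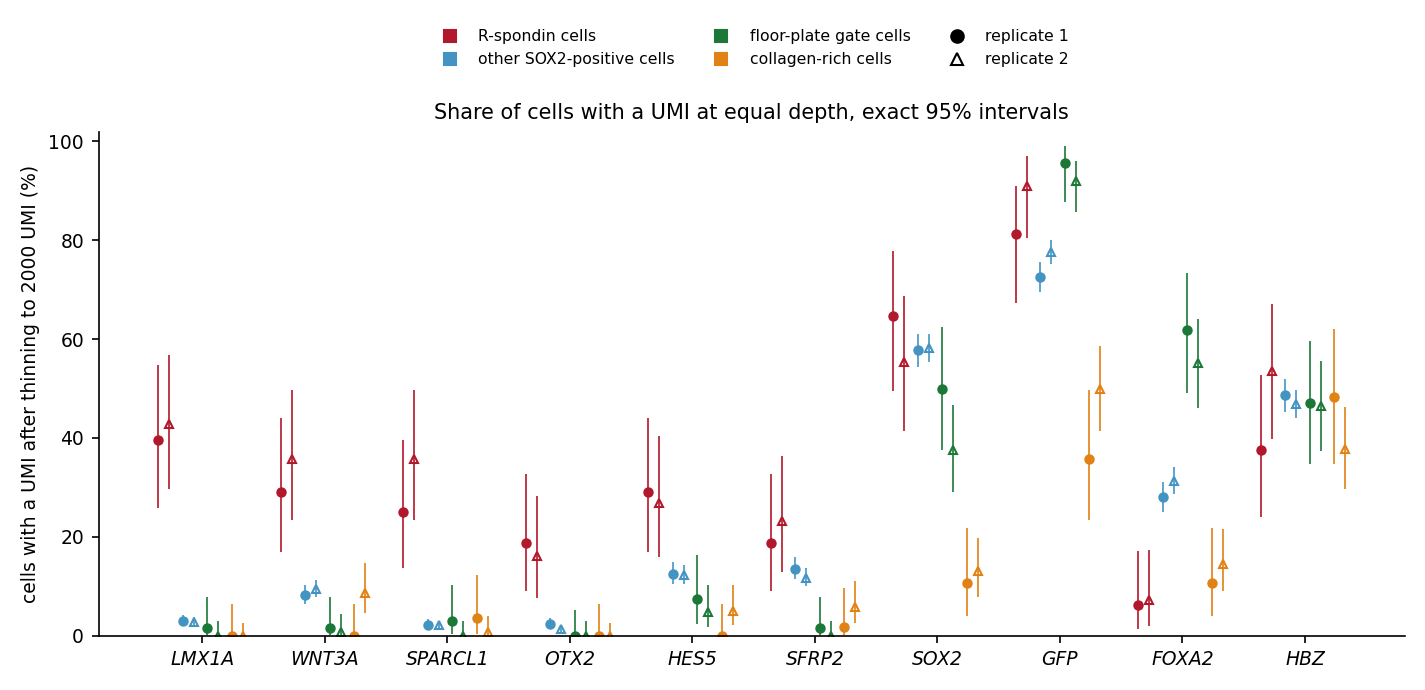
Share of cells with at least 1 UMI of a gene after thinning to 2000 UMI per cell, in percent, with exact 95% intervals that cover counting error; circles are replicate 1 and triangles replicate 2. LMX1A, WNT3A, SPARCL1 and OTX2 are above the other groups in R-spondin cells in both libraries, FOXA2 is at 6.25% and 7.14% there and 61.8% and 55.2% in floor-plate gate cells, and the HBZ intervals overlap between the groups of a library.

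A set of WNT ligands was higher in these cells. Of 19 WNT ligand genes 10 were tested, 5 were higher and none was lower, with a median log2 fold change of 1.72. WNT8B, a ligand of the dorsal forebrain midline, stood at 46.2 and 61.8 CPM against 2.15 and 2.64 CPM (4.62, SE 0.44, adjusted p = 1.8e-10), and WNT2B, a ligand of the cortical hem, at 108 and 99.3 CPM against 10.3 and 11.8 CPM (3.34, SE 0.25, adjusted p = 3.7e-13). WNT4 (23.1 and 26.2 against 1.5 and 1.89 CPM, 3.98, SE 0.61, adjusted p = 5.1e-06) and WNT9A (53.9 and 31.9 against 4.58 and 5.27 CPM, 3.19, SE 0.42, adjusted p = 2.6e-07) were the other members that rose beside WNT3A. In all 5 the R-spondin cells of both libraries lay above the other barcodes of both. WNT2B was not particular to R-spondin cells. At 2000 UMI it remained in 12.5% and 12.5% of them and in 12.5% and 7.97% of collagen-rich cells, with overlapping intervals. Unthinned, the shares were 32.7% and 35.1% of R-spondin cells and 39.3% and 34.0% of collagen-rich cells. These ligands were also higher against other SOX2-positive cells alone, at log2 fold changes of 4.27 for WNT8B, 4.02 for WNT2B, 4.6 for WNT4, 3.37 for WNT9A and 2.46 for WNT3A. That second comparison used 946 and 1262 other barcodes with at least 1 SOX2 UMI, a marker of neural progenitors, and called 8.28% of 12190 genes higher and 7.58% lower, 15.9% in all. It shares its R-spondin cells, and much of its reference, with the first.

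Receptor genes of the pathway were called in both directions, and neither ligase gene passed. Of 9 R-spondin receptors, ligases and related genes 7 were tested, 3 were lower than in all other kept barcodes and none was higher. LGR5, an R-spondin receptor and WNT target, stood at 17.9 and 22.5 CPM against 55.2 and 44.8 CPM (-1.13, SE 0.33, adjusted p = 0.014), and the glypicans GPC3 (-1.73, SE 0.28, adjusted p = 1.1e-05) and GPC4 (-0.71, SE 0.24, adjusted p = 0.034) were lower too. GPC3 was lower against all other barcodes and did not pass against SOX2-positive cells (-0.18, SE 0.34, adjusted p = 0.8). LGR4, the other main receptor, stood at 71.8 and 90.0 CPM against 85.4 and 70.9 CPM and did not pass (0.22, SE 0.21, adjusted p = 0.56). The ligase ZNRF3 stood at 310.4 and 200.5 CPM against 248 and 230 CPM (0.19, SE 0.15, adjusted p = 0.41) and RNF43 at 17.9 and 5.62 CPM (0.34, SE 0.56, adjusted p = 0.75), neither past the threshold. LGR6, the third receptor, had 1 UMI in the R-spondin cells. Among 14 WNT receptors tested, FZD10, a Frizzled of the dorsal neural tube, rose (79.5 and 112 against 16.6 and 13.1 CPM, 2.87, SE 0.26, adjusted p = 4.1e-11), as did ROR1 (0.76, SE 0.14, adjusted p = 9.1e-05), and FZD4 fell, with 2 UMI against 15.6 and 12 CPM.

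WNT antagonists and targets moved in both directions. SFRP2, a secreted Frizzled-related protein, stood at 344 and 266 CPM against 62.5 and 54.1 CPM (2.51, SE 0.15, adjusted p = 8.0e-16), and FRZB of the same family at 7.70 and 37.5 CPM against 4.77 and 3.58 CPM (2.68, SE 0.56, adjusted p = 5.8e-04). DRAXIN, a secreted WNT inhibitor and guidance cue, was lower, with 1 UMI in R-spondin cells against 16.1 and 14.9 CPM, and the other 7 of 10 antagonists tested did not pass. Of 13 target and effector genes tested, 4 were higher and 3 lower, with a median of 0.11. The higher ones were the direct targets SP5 (17.9 and 31.9 against 4.39 and 4.19 CPM, 2.71, SE 0.51, adjusted p = 1.4e-04) and AXIN2 (38.5 and 52.5 against 24.8 and 23.9 CPM, 1.06, SE 0.29, adjusted p = 0.0083), the cyclin CCND2 (0.76, SE 0.17, adjusted p = 8.9e-04) and the nuclear effector TCF7L2 (0.45, SE 0.15, adjusted p = 0.03). The lower ones were the nuclear effector LEF1 (33.3 and 39.4 against 147 and 125 CPM, -1.74, SE 0.24, adjusted p = 5.8e-07), the feedback inhibitor NKD1 (-1.39, SE 0.36, adjusted p = 0.0055) and CTNNB1, which encodes beta-catenin (-0.41, SE 0.14, adjusted p = 0.042). SP5, AXIN2, CCND2 and TCF7L2 were likewise higher, and LEF1, NKD1 and CTNNB1 lower, against other SOX2-positive cells.

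Of 19 BMP ligands, antagonists and targets tested, 6 were higher and 4 lower, with a median of 0.12. BMP7 stood at 66.7 and 54.4 CPM against 12.2 and 14.5 CPM (2.29, SE 0.29, adjusted p = 2.1e-07) and the ligand GDF10 at 66.7 and 37.5 CPM against 16.8 and 14.7 CPM (1.81, SE 0.30, adjusted p = 2.3e-05). The BMP target genes ID1 (0.84, SE 0.11, adjusted p = 2.6e-07) and ID3 (1.08, SE 0.11, adjusted p = 1.8e-09), the pseudoreceptor BAMBI (69.2 and 157 against 41.3 and 45.7 CPM, 1.53, SE 0.22, adjusted p = 2.4e-06) and the antagonist NOG (35.9 and 39.4 against 15.2 and 19.5 CPM, 1.24, SE 0.32, adjusted p = 0.0051) rose with the ligands. FST, the secreted antagonist follistatin, was at 7.70 and 3.75 CPM against 94.6 and 56.3 CPM (-3.62, SE 0.43, adjusted p = 3.5e-08), and SMAD9, SMAD6 and BMPR2 fell as well. BMP7 differed more from other SOX2-positive cells, where it was at 4.92 and 5.77 CPM (3.63, SE 0.36, adjusted p = 7.7e-22). Its reference level in the first comparison included the collagen-rich cells, at 65.6 and 82.6 CPM.

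Dorsal transcription factors were split by gene. The zinc-finger genes ZIC4 (241 and 276 against 87.5 and 83.0 CPM, 1.74, SE 0.16, adjusted p = 3.9e-11), ZIC1 (1.21, SE 0.26, adjusted p = 7.4e-04), ZIC2 (1.19, SE 0.14, adjusted p = 4.6e-08) and ZIC5 (1.15, SE 0.20, adjusted p = 5.9e-05), all of the dorsal neural tube, were higher. PAX3, which marks dorsal progenitors beside the roof plate, was lower at 74.4 and 30.0 CPM against 132 and 112 CPM (-1.18, SE 0.23, adjusted p = 2.6e-04), with replicate 1 above replicate 2. The dorsal list had 11 measured genes, of which 7 were tested and 2 did not pass, and OLIG3, ATOH1, GSX1, GSX2 and BARHL1 had no UMI in the R-spondin cells. None of the 4 intermediate and 7 ventral progenitor genes tested passed against all other kept barcodes. PAX6, which spans the intermediate progenitors, stood at 115 and 91.8 CPM against 130.1 and 105 CPM (-0.06, SE 0.18, adjusted p = 0.89).

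By the rule for naming genes, the largest rises against all other kept barcodes were in TRPM3, LIM2, WNT8B, LMX1A, IGFBP6, KCNC2, TTR, GLIS3, OTX2, ADAMTS3, PTX3, WNT2B, SYNPR, CLSTN2 and FZD10. TRPM3, a cation channel known from the choroid plexus, stood at 400.1 and 401 CPM against 6.54 and 4.94 CPM (6.27, SE 0.19, adjusted p = 8.4e-26). It was uneven between cells: 18 of 49 and 23 of 57 cells carried it, and the single highest cell held 86 of 156 TRPM3 UMI in replicate 1 and 61 of 214 in replicate 2. LIM2, a membrane protein known from lens fibres, was more evenly spread, at 71.8 and 114 CPM against 1.5 and 1.76 CPM (5.97, SE 0.38, adjusted p = 1.9e-15), with at most 5 and 8 UMI in a cell. The potassium channel gene KCNC2 (233 and 326 against 13.4 and 18.3 CPM, 4.27, SE 0.18, adjusted p = 8.7e-21), the zinc-finger factor GLIS3 (251 and 298 against 20.4 and 19.8 CPM, 3.91, SE 0.18, adjusted p = 1.0e-19) and the secreted protease ADAMTS3 (626 and 539.7 against 54.3 and 50.2 CPM, 3.60, SE 0.14, adjusted p = 2.4e-22) were high in both libraries. IGFBP6, a secreted binder of insulin-like growth factors, was at 56.4 and 129 CPM against 3.65 and 6.42 CPM, higher in replicate 2. PTX3 (3.51), SYNPR (3.06) and CLSTN2 (2.88), a secreted pentraxin and membrane proteins of synapses, completed the list by log2 fold change.

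**Figure D4:**
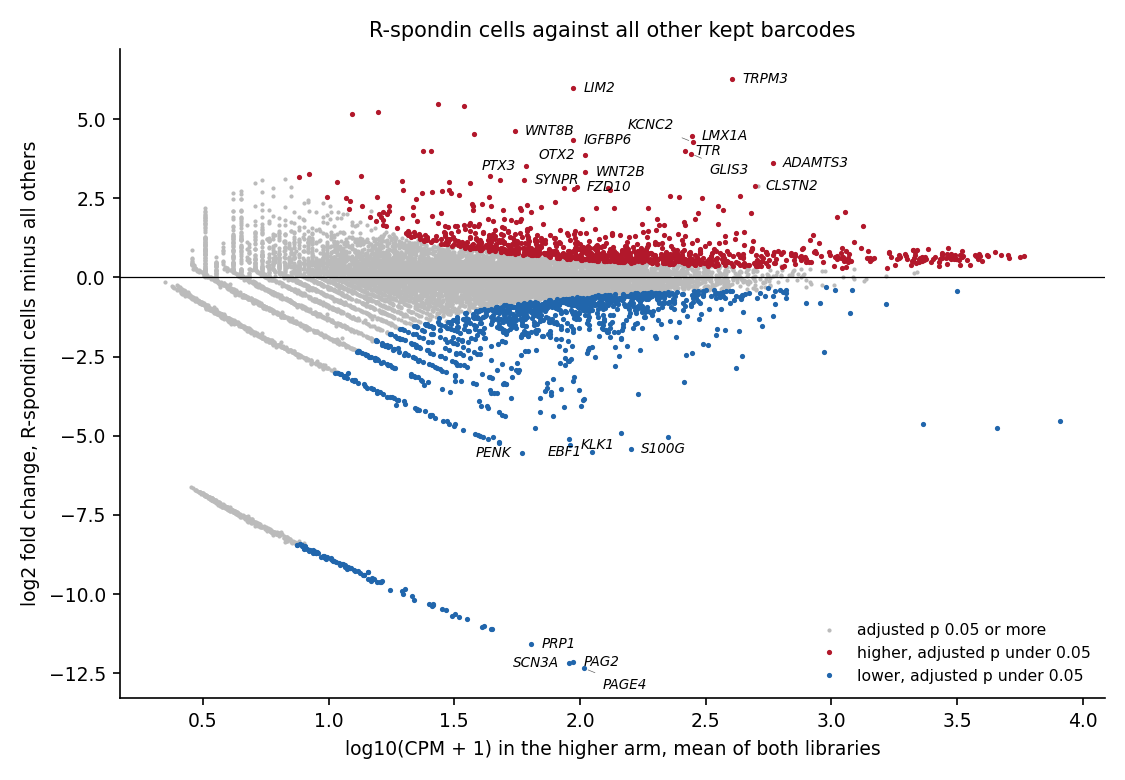
Each point is 1 of 13322 genes, placed by log10 of CPM + 1 in the higher of both arms and by the log2 fold change of R-spondin cells against all other kept barcodes; coloured points had an adjusted p under 0.05. TRPM3 (6.27) and LIM2 (5.97) head the rises, and the separate band at the bottom holds genes with no count in R-spondin cells, whose fitted fold changes depend on the prior count.

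The named falls included genes of the trophoblast and of neurons. PAGE4, PAG2 and PRP1 had no UMI in R-spondin cells, and stood at 134 and 71.9, 144 and 41.9 and 104 and 21.6 CPM in all other kept barcodes, so that with 3 counts per library taken as the floor PAGE4 was at least 17.4-fold and 12.8-fold lower in replicate 1 and replicate 2, PAG2 at least 18.7-fold and 7.46-fold lower and PRP1 at least 13.6-fold and 3.85-fold lower. PAG2 and PRP1 are products of the ruminant trophoblast. In other SOX2-positive cells PAG2 was at 1.64 and 0.888 CPM and PRP1 at 16.4 and 0.555 CPM, and both calls were lost without the library block (adjusted p = 0.56 and 0.67). SCN3A, a neuronal sodium channel, also had no UMI and was at least 12.8-fold and 14.5-fold lower than in all other barcodes (98.2 and 81.3 CPM) and at least 6.90-fold and 9.65-fold lower than in SOX2-positive cells (53.1 and 54.3 CPM). PENK, the enkephalin precursor, had 1 UMI in the R-spondin cells against 71.2 and 44.6 CPM, and EBF1, a factor of differentiating neurons and mesenchyme, had 2 against 123 and 98.5 CPM. S100G and KLK1 had 3 and 2 UMI, and no fold is given for these 4. The KLK1 call was lost against reference barcodes with no R-spondin UMI (adjusted p = 0.25), where the fitted difference was much smaller. Against SOX2-positive cells the named falls were SCN3A, PENK, SHH (-3.78), the protease ADAMTS18 (0 and 5.62 against 44.1 and 60.4 CPM), the ubiquitin ligase RNF128 (2.56 and 5.62 against 63.4 and 49.5 CPM) and the neural splicing factor SRRM4 (10.3 and 1.87 against 76.8 and 58.4 CPM). The named rises there were TRPM3 (6.30), LIM2 (5.49), KCNC2 (4.72), TTR (4.39, a call lost without the library block, adjusted p = 0.24), IGFBP6 (4.35), LMX1A (4.3), WNT8B and DLK1, a transmembrane protein of the Delta-like family (97.5 and 73.1 against 6.06 and 4.22 CPM, 4.22, SE 0.32).

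The progenitor gene SOX2 and a group of like genes were higher. Of 12 neural progenitor genes tested 6 were higher than in all other kept barcodes and none lower (median 0.61), among them SOX2 (485 and 485 against 236 and 244 CPM, 1.14, SE 0.12, adjusted p = 5.6e-09), the intermediate filament gene NES (1203 and 1254 against 614 and 617 CPM, 1.12, SE 0.11, adjusted p = 2.0e-10) and the glutamate transporter SLC1A3 (1.21, SE 0.20, adjusted p = 1.7e-05). Against other SOX2-positive cells, NES (0.87, SE 0.13, adjusted p = 2.0e-09) and SLC1A3 (1.35, SE 0.21, adjusted p = 6.4e-09) were still higher. HES5, a Notch target that holds progenitors undifferentiated, stood at 418 and 287 CPM against 77.4 and 82.4 CPM (2.24, SE 0.15, adjusted p = 1.5e-14). In replicate 1 a single cell gave 61 of 163 HES5 UMI. The Notch ligand genes DLL3 (3 UMI in R-spondin cells, against 25.1 and 29.6 CPM in all other kept barcodes) and JAG1 (-0.69, SE 0.23, adjusted p = 0.033) were lower, and of 16 Notch genes tested 4 were higher and 3 lower.

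Of 10 neuron genes tested, 7 were lower and 1 higher, with a median of -1.56. GAP43, a growth cone protein, stood at 28.2 and 20.6 CPM against 236 and 281 CPM (-3.31, SE 0.24, adjusted p = 8.3e-14), and ELAVL3, an RNA-binding protein of new neurons, at 38.5 and 33.7 CPM against 126 and 118 CPM (-1.63, SE 0.24, adjusted p = 2.4e-06). MAP2, a microtubule protein, went the other way (1241 and 1100 against 801 and 730 CPM, 0.74, SE 0.11, adjusted p = 1.6e-06). Against other SOX2-positive cells 7 of 9 were lower, and MAP2 and STMN2 (485 and 776 against 343 and 366 CPM, 0.98, SE 0.14, adjusted p = 7.5e-11) were higher. Cell-cycle genes of the G2 and M phases were lower for 7 of 20 and higher for none (median -0.58), with the spindle gene ASPM at 35.9 and 18.7 CPM against 85.3 and 74.9 CPM (-1.48, SE 0.28, adjusted p = 1.9e-04), and 11 of 20 were lower against SOX2-positive cells. In DESeq2 1 of the 20 was lower in each comparison. Of 20 S-phase genes 1 was higher and 3 lower.

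Genes of energy metabolism and translation were higher by smaller amounts. Of 19 glycolysis genes 12 were higher and 1 lower (median 0.59), such as LDHA (518 and 544 against 281 and 341 CPM, 0.90, SE 0.12, adjusted p = 5.1e-07) and ENO1 (0.86, SE 0.10, adjusted p = 3.5e-08). Of 28 oxidative phosphorylation genes 15 were higher and none lower (median 0.47), and DESeq2 called 5. Of 81 ribosomal protein genes tested 77 were higher (median 0.61), led by RPL10A at 2078 and 2759 CPM against 1251 and 1580 CPM (0.90, SE 0.10, adjusted p = 7.4e-09). Both libraries of R-spondin cells were above both of the others for RPL10A, and replicate 2 was above replicate 1 in both groups. Without the library as a block, 2 of the 81 passed, and against SOX2-positive cells the count went from 74 to 3, while the libraries themselves differed, as the values of RPL10A show. In both comparisons that was a smaller share than of all genes called higher without the block. The counts over all genes without the block and in DESeq2 are given at the end. With barcodes of at least 5000 UMI only, 76 and 64 of the 81 were higher. No gene of the 3 lists passed against the floor-plate gate cells, whose median depth was 10443 and 9515.5 UMI, close to that of the R-spondin cells. In simulated data that comparison recovered 23% of 2-fold changes, so differences of the size above could be missed there. The medians were -0.24 for glycolysis, -0.04 for oxidative phosphorylation and -0.22 for ribosomal protein genes, beside -0.009 over all genes. By the choice of scaling the median of all genes moved from -0.08 to -0.21 in the first comparison and from -0.03 to -0.20 in the second when TMM was left out.

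Guidance, matrix and growth factor genes gave mixed counts. Of 29 axon guidance genes tested 4 were higher and 10 lower (median -0.56), with NTN4, a netrin of basement membranes, at 223 and 105 CPM against 71.0 and 68.4 CPM (1.29, SE 0.19, adjusted p = 3.6e-06) and the netrin receptor gene UNC5B at 59.0 and 63.7 CPM (0.97, SE 0.25, adjusted p = 0.0056). Against other SOX2-positive cells 4 of 27 were higher and 5 lower. Of 29 matrix and secreted genes 7 were higher and 10 lower, and against SOX2-positive cells 10 of 28 were higher and 3 lower. The basement membrane collagen gene COL4A1 stood at 292 and 294 CPM against 138 and 137 CPM in SOX2-positive cells (1.26, SE 0.15, adjusted p = 8.7e-15) and did not pass against all other kept barcodes (0.29, SE 0.14, adjusted p = 0.15). COL4A5 and COL4A6, of the same collagen family, were higher in both comparisons, as was LAMA1, a laminin chain (0.74, SE 0.19, adjusted p = 0.0038 and 0.75, SE 0.19, adjusted p = 0.0018). Of 17 FGF and retinoic acid genes 3 were higher, the receptor FGFR2 (287 and 236 against 93.1 and 88.0 CPM, 1.65, SE 0.15, adjusted p = 8.4e-11) and the FGF-induced genes ETV1 (1.16, SE 0.25, adjusted p = 9.1e-04) and DUSP6 (0.90, SE 0.18, adjusted p = 3.6e-04), and none was lower.

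Regional genes of the anterior neural tube were among the rises. Of 9 forebrain and midbrain genes tested, 3 were higher and none lower. OTX2, the homeobox gene of forebrain and midbrain, stood at 97.5 and 111 CPM against 9.07 and 6.76 CPM (3.88, SE 0.27, adjusted p = 4.3e-14), OTX1 at 41.0 and 26.2 CPM against 1.40 and 0.406 CPM (5.41, SE 0.62, adjusted p = 1.9e-08) and SIX6 at 48.7 and 28.1 CPM against 14.4 and 12 CPM (1.63, SE 0.34, adjusted p = 5.7e-04). Of the 17 genes in that list 9 had no UMI (EMX1, LHX9, SIX3, RAX, BARHL2, EN1, EN2, FGF8 and TAL2). Of 26 HOX and related genes of hindbrain and cord, 7 were tested and 1, HOXB2, was lower (7.70 and 24.4 against 36.5 and 40.6 CPM, -1.05, SE 0.37, adjusted p = 0.048). Of the 26, 19 had no UMI in R-spondin cells. The 26 summed to 71.8 and 69.3 CPM, against 119 and 128 CPM in all other kept barcodes. Detection of these genes was mixed between cells. An OTX2 UMI with none of 5 HOX genes (HOXA2, HOXA3, HOXB2, HOXB3 and HOXD3) was found in 16 and 17 R-spondin cells. A UMI of those HOX genes with no OTX2 was found in 15 and 13 cells, both in 5 and 8, and neither in 13 and 19. A missing UMI is not absence of the gene.

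Cells with an RSPO1 UMI were compared with the other R-spondin cells. A missing RSPO1 UMI is not absence of the gene, since at 2000 UMI RSPO1 remained in 25.0% and 23.2% of all R-spondin cells, against 65.3% and 71.9% unthinned, and the part of depth and of the rule in the differences below was not tested. The 32 and 41 cells with RSPO1 were deeper (median 9417.5 and 10404 UMI) than the 17 and 16 without (5309 and 7847), and 0.771% of 4542 genes tested were higher and 1.37% lower, 2.14% in all. Cells without RSPO1 carried more RSPO2 (1349 and 1728 against 326 and 522 CPM), and the rule demands RSPO2 and RSPO3 of a cell that lacks an RSPO1 UMI. TRPM3 was at 1293 and 1405 CPM in cells without RSPO1 and 60.2 and 97.6 CPM in cells with it (-4.01, SE 0.27, adjusted p = 1.1e-08), with its UMI concentrated in few cells as above. PDZRN4, a PDZ and RING domain gene, was at 446 and 694 against 42.5 and 14.6 CPM (-4.35, SE 0.38, adjusted p = 3.2e-07). In replicate 1 the highest cell held 24 of 60 PDZRN4 UMI and in replicate 2 34 of 92. OTX1 (-2.44, SE 0.59, adjusted p = 0.031), OTX2 (177 and 218 against 67.3 and 78.1 CPM, -1.37, SE 0.35, adjusted p = 0.039), SFRP2 (754 and 629.9 against 188 and 156 CPM, -1.94, SE 0.25, adjusted p = 9.6e-05) and KCNC2 (-1.58, SE 0.29, adjusted p = 0.0047) were also lower in cells with RSPO1. LIX1 (-3.48), the calcium channel gene RYR2 (-3.38) and the exchanger gene SLC24A4 (-3.35) were the other named falls, with SHISA9, which had no UMI in cells with RSPO1 and was at least 5.25-fold and 13.2-fold lower in replicate 1 and replicate 2.

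Cells with RSPO1 were higher for HES5 (552 and 356 against 65.1 and 56.5 CPM, 2.93, SE 0.35, adjusted p = 3.3e-05), NES (1.18, SE 0.21, adjusted p = 0.0029), the retinoic acid binding protein CRABP1 (1696 and 2174 against 205 and 250.3 CPM, 3.15, SE 0.22, adjusted p = 1.1e-08) and the forkhead gene FOXP2 (354 and 256 against 55.8 and 8.07 CPM, 3.37, SE 0.44, adjusted p = 9.6e-05). The simple epithelial keratin genes KRT8 (319 and 761 against 9.30 and 56.5 CPM, 4.08, SE 0.41, adjusted p = 3.1e-06) and KRT18 (2.64, SE 0.32, adjusted p = 3.4e-05) were higher as well. KRT8 was found in 15 and 21 R-spondin cells, and 3 cells held 61.5% and 51.7% of its UMI. For FOXP2 the 3 highest cells held 50% and 34.9%, for HES5 58.3% and 54.2% and for CRABP1 46.3% and 25.2%. The named rises also held LY6E (67.3 and 78.1 against 9.30 and 8.07 CPM, from 2 UMI in cells without RSPO1), CMTM8 (103 and 105 against 27.9 and 0 CPM, from 3), the ligand TGFB2 (2.85) and the adhesion gene CHL1 (2.80). For each of these genes the libraries of cells with RSPO1 both lay above those of cells without it. The naming rule asked for the same direction in both libraries, so for the named genes this adds little. No roof-plate gene passed in this comparison: LMX1A was at 241 and 249 CPM with RSPO1 and 288 and 468 CPM without (-0.56, SE 0.27, adjusted p = 0.37), and WNT3A at 276 and 276 and 158 and 153 CPM (0.89, SE 0.29, adjusted p = 0.14). With barcodes of at least 5000 UMI only, the log2 fold change was -4.32 for TRPM3, 2.92 for HES5, 3.16 for CRABP1 and 3.89 for KRT8, and these 4 still passed. Without TMM the calls of LY6E, CMTM8, CHL1 and RYR2 were lost.

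**Figure D5:**
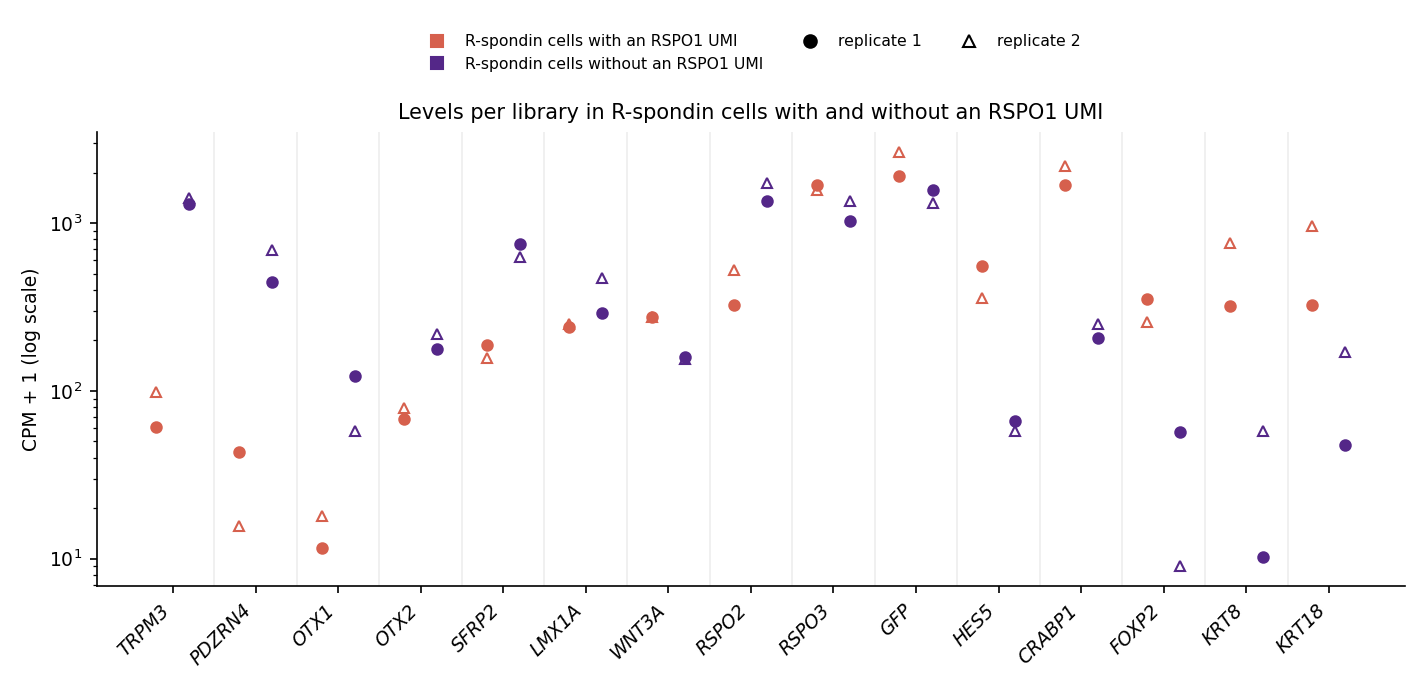
Levels in R-spondin cells with and without an RSPO1 UMI per library, as CPM + 1 on a log axis; circles are replicate 1 and triangles replicate 2. TRPM3, PDZRN4, OTX1, OTX2 and SFRP2 are higher in cells without RSPO1 in both libraries, HES5, CRABP1, FOXP2, KRT8 and KRT18 in cells with it, and RSPO2 and RSPO3 are shown as a description.

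Floor-plate gate cells, chosen by SHH, NTN1 and CORIN in the same way, gave a comparison at similar depth between both midlines of the neural tube. There were 68 and 126 of them and none was also an R-spondin cell. Of 8193 genes tested 4.5% were higher in R-spondin cells and 3.05% lower, 7.56% in all. LMX1A was at 3.12 and 3.48 CPM in floor-plate gate cells (6.30, SE 0.44, adjusted p = 1.7e-43), WNT3A at 1.56 and 2.61 CPM (6.65, SE 0.46, adjusted p = 5.4e-43), and SFRP2 at 6.23 and 4.35 CPM (5.78, SE 0.40, adjusted p = 5.4e-43). OTX2 and WNT2B each had 2 UMI in floor-plate gate cells, at 0 and 1.74 CPM for OTX2 and 0 and 1.74 CPM for WNT2B, and both passed. LIM2 and WNT8B had no UMI there, and LIM2 was at least 15.4-fold and 43.8-fold higher and WNT8B at least 9.88-fold and 23.7-fold higher in the R-spondin cells of replicate 1 and replicate 2, while TRPM3 had 1 UMI there. Of 5 dorsal genes tested all 5 were higher in R-spondin cells (ZIC1, ZIC2, ZIC4, ZIC5 and PAX3), so PAX3, lower than in other neural cells, was higher than in the floor-plate cells, which had 3 PAX3 UMI (1.56 and 1.74 CPM). PAX6 was higher too (115 and 91.8 against 3.12 and 6.96 CPM, 4.13, SE 0.46, adjusted p = 6.5e-17).

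Among genes lower than in the floor-plate cells, SCN3A, SLITRK6, a neuronal transmembrane gene, and TBX3, a T-box factor, had no UMI in R-spondin cells. By library, SCN3A was at least 13.8-fold and 19.3-fold lower, SLITRK6 at least 10.1-fold and 12.4-fold lower and TBX3 at least 7.29-fold and 8.82-fold lower. SPHKAP had 1 UMI, against 99.7 and 105 CPM, and CATHL5, a cathelicidin, had 3 against 129 and 80.9 CPM. FOXA2 was lower (48.7 and 48.7 against 551 and 468 CPM, -3.42, SE 0.31, adjusted p = 4.0e-25), as were the floor-plate genes SPON1 (-2.73, SE 0.34, adjusted p = 5.8e-14) and FERD3L (-3.53, SE 0.59, adjusted p = 1.2e-07). SLIT2, high in both groups, did not pass (1347 and 1325 against 763 and 975 CPM, 0.57, SE 0.36, adjusted p = 0.55), and SLIT3 was higher in R-spondin cells (1.93, SE 0.30, adjusted p = 1.1e-08).

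GFP, counted as a gene of the deposited table, stood at 1808 and 2337 CPM in R-spondin cells, 1629 and 1774 CPM in all other kept barcodes, 2191 and 2347 CPM in other SOX2-positive cells and 5204 and 3462 CPM in floor-plate gate cells. The labels do not say which cells carried GFP. R-spondin cells were higher than all other barcodes (0.41, SE 0.10, adjusted p = 0.0039), a call lost without the library block (adjusted p = 0.39). Against SOX2-positive cells the log2 fold change was 0.03 (SE 0.13, adjusted p = 0.92), and its sign changed with the scaling, at -0.14 without TMM. GFP was present in 41 of 49 and 54 of 57 R-spondin cells. It was higher in cells with RSPO1 than in those without (1898 and 2645 against 1572 and 1316 CPM, 0.71, SE 0.18, adjusted p = 0.039), a call lost in 6 alternatives, with adjusted p from 0.085 to 0.51. Against floor-plate gate cells the difference was -1.10 (SE 0.51, adjusted p = 0.25), with the floor-plate cells of both libraries above the R-spondin cells, and it passed without TMM (adjusted p = 0.048) and without the block (adjusted p = 0.012).

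Choroid plexus genes were tested because this epithelium arises beside the roof plate. Of 8 tested 4 were higher (TTR, OTX2, CLIC6 and KRT8), 1, AQP1, was lower, and the median was 2.14. The 10 genes of this list summed to 664 and 2026 CPM in R-spondin cells and 177 and 174 CPM in SOX2-positive cells. In collagen-rich cells they summed to 2139 and 1991 CPM, so a high sum was not particular to R-spondin cells, though OTX2 had no UMI in collagen-rich cells. CLIC6, a chloride channel gene of that epithelium, stood at 28.2 and 43.1 CPM against 5.61 and 4.6 CPM (2.98, SE 0.43, adjusted p = 2.0e-06). TTR, its main secreted product, was at 43.6 and 479.7 CPM against 8.97 and 23.6 CPM (3.98, SE 0.37, adjusted p = 4.1e-05) and rested on few cells. It was found in 5 and 11 R-spondin cells, and 1 cell held 157 of the 256 TTR UMI of replicate 2. At 2000 UMI a TTR UMI remained in 6.25% and 12.5% of R-spondin cells (1.31 to 17.2% and 5.18 to 24.1%) and 10.3% and 8% of floor-plate gate cells (4.24 to 20.1% and 3.90 to 14.2%), unthinned in 10.2% and 19.3% and 26.5% and 19.8%, and the comparison of levels between these groups did not pass (1.83, SE 1.95, adjusted p = 0.92). The call against all other kept barcodes was lost without the library block (adjusted p = 0.28) and without the 5% of barcodes with the most UMI (adjusted p = 0.18). KRT8 was at 233 and 598 CPM against 152 and 182 CPM (1.39, SE 0.19, adjusted p = 1.4e-05) and KRT18 at 246 and 774 CPM against 70.0 and 71.9 CPM, not past the threshold (2.89, SE 0.68, adjusted p = 0.21), and both passed against SOX2-positive cells (2.73, SE 0.15 and 3.01, SE 0.15). The motile cilia master gene FOXJ1 had no UMI, and 1 of 9 cilia genes tested, RFX3, was higher.

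Marker lists of other tissues were summed. The 12 mesenchyme genes summed to 89.8 and 119.9 CPM in R-spondin cells and 1405 and 2284 CPM in all other kept barcodes, and 143 and 204 CPM in SOX2-positive cells, with COL6A1, POSTN and TBX18 at 0. The 7 somite genes all had no UMI. The 9 endothelial genes summed to 10.3 and 11.2 CPM, with CDH5, TIE1, EMCN, ESAM and PLVAP at 0, and the 8 trophoblast genes to 2.56 and 0 CPM with 7 at 0. The 10 neural crest genes summed to 210.3 and 247 CPM, against 212 and 207 CPM in all other kept barcodes and 171 and 179.5 CPM in SOX2-positive cells, with SOX10, FOXD3 and ETS1 at 0. These near sums hid opposite calls. Of 8 tested against all other kept barcodes, ETS1, TFAP2B and TWIST1 were lower and CDH6 was higher, with a median log2 fold change of -1.325. The same 4 genes were called the same way against SOX2-positive cells. The 7 erythroid genes summed to 603 and 521 CPM, with KLF1 and SLC4A1 at 0, close to the 679 and 537 CPM of floor-plate gate cells. The 9 endoderm genes summed to 218 and 793 CPM, which includes TTR, with AFP, APOA2, SERPINA1 and HNF4A at 0. The 8 surface ectoderm genes summed to 92.3 and 193 CPM, with KRT5, GRHL2 and ESRP1 at 0. Their sums were 359.6 and 541.7 CPM in all other kept barcodes and 92.6 and 91.8 CPM in SOX2-positive cells. Of 7 tested against all other barcodes 1 was higher and 1, KRT19, was lower, with a median log2 fold change of -1.694. The higher one was CDH1, the epithelial cadherin (20.5 and 16.9 against 4.21 and 2.10 CPM, 2.75, SE 0.63, adjusted p = 0.0014). Both surface ectoderm genes tested against SOX2-positive cells were higher, CDH1 (4.15, SE 0.72, adjusted p = 3.6e-07) and the keratin gene KRT19 (69.2 and 172 against 86.7 and 85.4 CPM, 0.69, SE 0.19, adjusted p = 0.0037), the latter in replicate 2 only, and neither passed in DESeq2. PRRX1, a mesenchymal homeobox gene, was the 1 mesenchyme gene that rose (35.9 and 61.8 against 12.4 and 17.6 CPM, 1.84, SE 0.30, adjusted p = 1.7e-05).

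RSPO3 without the other R-spondins marked further barcodes outside the rule. With at least 4 RSPO3 UMI, no RSPO1 or RSPO2 and under 10 collagen UMI there were 44 and 81 barcodes, and with 10 or more collagen UMI 13 and 31. LMX1A was at 73.4 and 57.5 CPM in the first group and 0 in both libraries of the second. WNT3A was at 106 and 97.1 CPM in the first and 21.2 and 13.2 CPM in the second. CRABP1 was at 6415 and 13240 CPM in the first group, against 1285 and 1728 CPM in R-spondin cells. These groups were formed after the values had been seen and were not tested. R-spondin cells thus had the highest LMX1A of the 3 groups, in both libraries.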

How the data were processed

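Droplet 3′ single-cell RNA was measured in 2 libraries of day 25 chimeric bovine embryos, made into single cells with papain, then sorted by a gate that the sources do not give, and run through the 10x Genomics v3.1 kit, per the labels' protocols. The authors deposited raw UMI counts per gene and barcode, with no normalization. Cell Ranger, R 4.1.2, Seurat 4.3.0 and bosTau9 are named per the submitters' processing notes. A column's prefix number gave its library, there were 0 columns of another sample, gene names are those of the file, and no coordinates or sequences were used.

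The R-spondin cells, the gene lists and the tests were chosen with earlier results of these data known. The ribosomal list, the TTR and R-spondin-free alternatives and the RSPO3-alone groups were added after the values had been seen. Counts were summed per group of cells and library and fitted with edgeR 4.0.16 in R 4.3.3 (TMM, filterByExpr, robust quasi-likelihood) with library as a block, since both sums of a library come from 1 suspension, and p-values were adjusted over all genes tested. Each fit had 1 residual degree of freedom and borrowed the spread across genes, with a median prior of 37.3 and 19.4 degrees of freedom against all other barcodes and between cells with and without RSPO1, and an infinite prior against SOX2-positive and floor-plate cells, so very small p-values there rest on the shared spread. Genes used by a rule, SPARCL1, and SOX2 in the SOX2-positive comparison were not tested. Genes were named as the 15 largest rises and 8 largest falls against all other barcodes, and 8 and 6 elsewhere, where adjusted p was under 0.05, both libraries moved the same way and the higher arm reached 50 CPM on average, without unnamed identifiers and XIST, plus GFP, SPARCL1 and list members as examples. LGR6, WNT1 and GDF7 fell under the filter. Some genes are not reported here and were left out of the list counts. SE is the log2 fold change divided by the root of F. In simulated data 200 genes per comparison were changed, picked above a floor of expected counts, so genes with few counts were not tried. Against all other barcodes the fit recovered 30% of the 2-fold and 74% of the 4-fold changes, with 0 false calls in a fit of 13151 genes. Against SOX2-positive cells it recovered 54% and 82%, with 5 false calls in 12033 genes. Against floor-plate cells it recovered 23% and 80%, with 2 in 7837. Between cells with and without RSPO1 it recovered 34% and 83%, with 13 in 4142. Alternatives were DESeq2 1.42.0, no filter, no TMM, no block, 1 library at a time, other thresholds of depth, R-spondin and collagen, and leaving out the deepest 5% of barcodes. Cells were thinned to 2000 UMI with seed 1.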

Additional observations from a re-analysis of the deposited data

How the results depend on the processing

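Counts of calls moved with the tool and the scaling. Against all other barcodes, 1020 higher and 1100 lower became 556 and 1134 without TMM, 604 and 804 with no replicate block, and 431 and 271 in DESeq2. Against SOX2-positive cells, 1009 and 924 became 640 and 1563 without TMM, 605 and 575 with no replicate block, 367 and 124 in DESeq2, and 574 and 403 without R-spondin cells with a TTR UMI. Against floor-plate gate cells, 369 and 250 became 123 and 87 in DESeq2. Between cells with and without RSPO1, 35 and 62 became 8 and 21 without TMM and 8 and 13 in DESeq2, and the higher count became 72 with no filter and 53 at a collagen sum under 3. The share of R-spondin cells was 3.94% and 3.69% among barcodes with at least 5000 UMI. Of named genes under settings with a test, 766 results kept direction and call, 31 lost the call, 3 gained one and 7 changed sign. The sign changes were TTR without the cells that carry it (-9.78 and -8.65, by construction), TTR between cells with and without RSPO1 in DESeq2 (0.19), and GFP against SOX2-positive cells with no filter (-0.0096), without TMM (-0.14), at 5000 UMI (-0.067) and with an R-spondin-free reference (-0.016). DESeq2 lost the calls of genes at 0 in an arm (PAGE4, SCN3A, PAG2, PRP1, LIM2, WNT8B, SLITRK6 and TBX3). Apart from the TTR cells left out, the cause was not tested. The no-block setting is also the check of pairing: both sums of a library share 1 suspension, and without the block LMX1A against all other barcodes stayed at 4.48. With 1 library at a time there is no residual degree of freedom, so counts have no value there. Of the named genes' values 95 moved by less than the spread between replicates and 73 by more. That spread comes from the same 2 library values, so the split tests little. Signs could not change for genes chosen by the naming rule, which required the same direction in both libraries. For genes that were not called, a change of sign was not looked for. LMX1A ran from 4.3 to 4.56, WNT3A from 2.46 to 2.62 and OTX2 from 3.47 to 4.14. Depth limits genes under about 10 CPM, where 3 counts make 7.69 and 5.62 CPM in these cells. The settings without cells with a TTR UMI and with an R-spondin-free reference were chosen after seeing the data.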
